A study of Mus musculus with 18 samples.

Results

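The ribosomal proteins and translation factors on these arrays were taken by gene symbol. A probe set was a member when the platform annotation gave it 1 symbol that starts with Rpl, Rps, Rplp, Eif or Eef followed by a digit, with the Rps6k kinases left out. The rule used no measured value. It found 118 of 13179 probe sets, for 87 of 6137 named genes: 40 probe sets for large subunit proteins, 16 for small subunit proteins, 45 for initiation factors, 10 for elongation factors and 7 for kinases and binding proteins of these factors. A further 26 probe sets name several genes, at least 1 of them of this family, and are not members.

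Whole ovaries of LHCTP transgenic mice, which hypersecrete luteinizing hormone (LH), and of wild-type mice had been hybridised to 1 array of chip type A and 1 of chip type B per condition. The transgenic conditions at 5 months were CF-1 ovaries described as a granulosa cell tumour, CF-1 ovaries after treatment with human chorionic gonadotropin (hCG, an agonist of the LH receptor) described as a luteoma, and ovaries of the CF-1xC57BL/6 F1 hybrid described as a luteoma. The transgenic ovaries of both strains at 2 months were described as cystic. The wild-type conditions were CF-1 and hybrid ovaries at 5 and at 2 months, which makes 9 conditions and 18 arrays. The labels name no number of animals, no hCG dose and no promoter of the transgene. In the published line the hormone is made in the pituitary, so that ovary arrays hold no check of the transgene itself. One description of the tumour on chip B gives 2 months, against 5 months in its title and source, which were followed. Where 4 levels are listed below, they run CF-1 at 5 months, hybrid at 5 months, CF-1 at 2 months and hybrid at 2 months.

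The ribosome joins a small subunit, which reads the messenger RNA, to a large subunit, which forms the peptide bond. Initiation factors bring the initiator tRNA and the capped message to the small subunit, and elongation factors deliver the further aminoacyl-tRNAs and move the ribosome along. In granulosa and luteal cells, gonadotropins act on translation through kinase signalling, with eIF4E-binding proteins and kinases of eIF2 and eEF2 as control points. Most ribosomal protein messages, and that of eEF1A, carry a 5' terminal oligopyrimidine (TOP) tract, a run of C and T letters in the DNA that begins with the C at the transcription start and through which their translation is controlled together.

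The start sites of some member genes are shown because the TOP tract is a sequence feature known for this family that the symbol rule did not use. A tract was counted where a C followed by at least 5 bases, each C or T, began within 5 bases of the annotated start on the sense strand. Each window holds 15 bases before the start and 15 from it on, from RefSeq on GRCm38.p6, with the tract in capitals. The elongation factor that delivers aminoacyl-tRNA (chr9:78481710-78481739, minus strand), a large subunit protein (chr7:4792950-4792979, plus strand), a stalk protein of the large subunit (chr7:141447636-141447665, plus strand), a further large subunit protein (chr2:26910792-26910821, plus strand), and the small subunit proteins Rps18 (chr17:33955651-33955680, minus strand) and Rps24 (chr14:24490663-24490692, plus strand) held one:
Eef1a1: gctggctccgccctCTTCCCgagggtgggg
Rpl28: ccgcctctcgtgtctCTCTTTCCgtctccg
Rplp2: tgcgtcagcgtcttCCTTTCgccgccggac
Rpl7a: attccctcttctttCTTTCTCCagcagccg
Rps18: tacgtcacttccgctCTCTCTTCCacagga
Rps24: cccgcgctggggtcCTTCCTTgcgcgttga
Rpl41 (chr10:128549154-128549183, minus strand), Rpl5 (chr5:107900513-107900542, plus strand), the helicase gene Eif4a2 (chr16:23107453-23107482, plus strand) and Eif2a (chr3:58525806-58525835, plus strand), which return below with their levels, had no such run in this window:
Rpl41: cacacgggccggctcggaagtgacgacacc
Rpl5: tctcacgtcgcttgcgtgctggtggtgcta
Eif4a2: ccgcggaaaccccgtaggagcagggcggcc
Eif2a: gtgtggactccgcccgctccggagagggag

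Of the 87 member genes 68 had a promoter entry. The tract was found in 13 of 35 ribosomal protein genes (37.1%), 9 of 23 of the large and 4 of 12 of the small subunit. It was found in 1 of 4 elongation factor genes, 4 of 25 initiation factor genes (16%) and 0 of 4 kinase or binding protein genes. Among all 27025 genes with an entry 11.9% held one, and on the opposite strand the shares were 8.82% of the member genes and 15.1% of all genes. A match describes the annotated start only, which can lie some bases off the start used in the ovary. The median fitted log2 difference between 5 and 2 months was -0.22 over 12 tested ribosomal protein genes with the tract and -0.22 over 18 without it, and that between transgenic and wild type 0.03 and 0.11.

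Levels are scaled intensities in units, with the arrays of a chip type brought to a common trimmed mean. A probe set was tested when it reached the detection limit, 367.6 units on chip A or 581.4 on chip B, on at least 2 of 9 arrays. This kept 94 member probe sets of 72 genes, 32 for the large subunit, 13 for the small subunit, 34 for initiation factors, 9 for elongation factors and 6 for kinases and binding proteins. Of the 24 left out, 20 were under the limit on all 9 arrays and 4 reached it on 1 array. For 9 of their genes another probe set was tested, so that a low value here speaks of the probes: Eef2, the translocation factor, lay below 0 on all 9 arrays with its chip A probe set and between 11135 and 21769 units with that of chip B. The 15 genes with no tested probe set include Eif4e, the cap-binding factor (35 to 177 units), Eif6, Eif5, Rpl4, Rpl27, Rpl32, Rpl34 and Rps7. In this array naming the suffix f_at marks probes shared by a sequence family. Of the 56 ribosomal protein probe sets 37 carry it, and processed pseudogenes and close copies can add to their signal.

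Ribosomal proteins were among the brightest members. The member probe sets with the highest mean were Rps29 (27544 units), Rpl3 (26779), the chip B probe set of Rps3 (26709), Rpl37a (26413) and the chip B probe set of Eef1a1 (26195). Eef1a2, Eif2ak2, 1 probe set of Eif4ebp2, Eef2k and 1 of Eif3m had the lowest means among the tested members (225 to 396 units). Brightness depends on the probes, so this is no order of the genes' abundance. Of the tested members 44 averaged 10000 units or more, 26 of chip A and 18 of chip B, and 302 other tested probe sets were that bright. The highest deposited value on an array was 24575 to 40883 units for chip A and, for chip B, 25653 to 41833. The 44 members thus lie in the upper part of the scale, where differences can be compressed.

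The deposited values of the bright ribosomal proteins covered a narrow range, and whether compression set it was not tested. The 25 bright ribosomal protein probe sets of chip A had deposited medians between 14306 and 20258 units on the 9 arrays, a 1.42-fold range, and the 14 of chip B between 17385 and 23466 units, a 1.35-fold range. The factors that bring the arrays to a common trimmed mean covered a wider range, 1.94-fold for chip A and, for chip B, 1.70-fold. After scaling, the same medians covered 12546 to 24858 units (1.98-fold) for chip A and, for chip B, 15632 to 30646 units (1.96-fold). A bright spike-in control, the 3' probe set of CreX, covered a 2.05-fold range for chip A and, for chip B, 2.23-fold after scaling, while the ratio of the ribosomal protein median to it covered 1.27-fold and 1.14-fold. Before scaling the control covered 1.52-fold for chip A and, for chip B, 1.42-fold. After scaling, the shared level of the bright ribosomal proteins moved with the control and with the scale factor. Scaling multiplies the ribosomal proteins and the control by the same factor, so this movement is in part built in. The part of this shared level in the differences below was not tested.

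**Figure D1:**
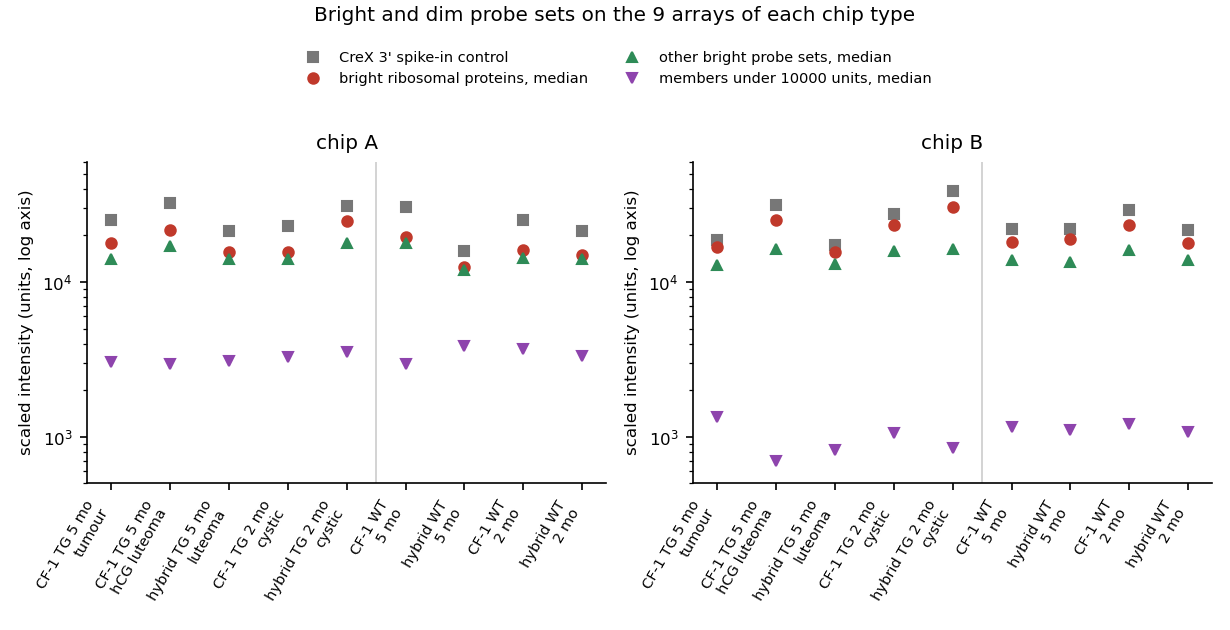
Scaled intensity (units, log axis) on the 9 arrays of chip A (left) and chip B (right), transgenic conditions left of the grey line. Red circles are the median of the bright ribosomal proteins, grey squares the CreX spike-in, green triangles the median of the other bright probe sets and purple triangles the median of the members under 10000 units. The red circles follow the grey squares, with which they share the scale factor of each array. They are highest in the hybrid cystic ovary, at 24858 units (chip A) and 30646 units (chip B).

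The hybrid cystic ovary had the highest scaled median of bright ribosomal proteins on either chip type. These ribosomal proteins had a deposited median of 18779 units for chip A and, for chip B, 22918, against 17743 and 20916 in the hybrid wild-type ovary at 2 months. The scale factors were 1.32 and 1.34 in the hybrid cystic ovary against 0.841 and 0.860 in the wild type, which set the scaled medians to 24858 and 30646 units against 14928 and 17991. The median log2 difference of the 39 bright ribosomal protein probe sets was 0.59 in these values, 0.02 after quantile normalization and 0.34 after cyclic loess, and the last of these was chosen after seeing the data.

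Some libraries also stood apart by a dim control probe set. A control probe set for the opposite strand of the 3' end of Gapdh gave 120 units in the CF-1 tumour, 209 in the hybrid luteoma and 133 in the CF-1 wild-type ovary at 5 months on chip A, against 348 to 552 on the other 6 arrays, and 162, 213 and 163 against 235 to 605 on chip B. These 3 samples hold 3 of the 4 untreated arrays at 5 months, so that age and this difference between arrays are largely shared. On chip B only the 605 units of hybrid wild type at 5 months reached the detection limit. The 235 units of CF-1 wild type at 2 months lay under the floor of 290.7 to which low values were raised. On chip A the 348 units of hybrid wild type at 5 months were also under the limit. The grouping of these 3 samples thus rests on a dim control. Of the 94 tested members 14 were lower on all 3 than on each of the other 6 arrays (14.9%), against 10.1% of all 6408 tested probe sets, and 3 were higher (3.19%), against 8.35%. Among the 14 were Eef1a1 (C78483_rc_f_at), Eif3e, Eif4a2, both probe sets of Eif3l, Rpl3, Rpl6, Rpl7, Rpl27a, Rpl28, Rpl36 and Rps24. With a term for the 3 arrays in the fit, limma called 0 members for the term after adjustment and 8 at an unadjusted p under 0.05 (8.51%), against 10.5% of all tested probe sets.

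The ovary itself could be read from its markers. On the 5 transgenic arrays the 13 measured ovary markers summed to 57677 to 136596 units, against 68966 to 105213 on the 4 wild-type arrays. Star, the cholesterol carrier of steroidogenic cells, was at 188 units in the tumour against 11263 to 22157 on the other arrays. Inhba (12028 units against 1562 to 5891) and Inhbb (10279 against 711 to 5987) went the other way. Against CF-1 wild type at 5 months, 2 of the 13 were at least 2-fold higher in the tumour and 6 lower. Erythroid markers (5 of 11 genes measured) summed to 82174 units in the hybrid cystic and 60032 in the hCG luteoma, the arrays with the highest bright ribosomal proteins on chip B, against 24127 to 46126 elsewhere. Bright globin probe sets of chip B made up most of these sums, Hba-a1 (47516 and 38313 units) and Hbb-b2 (30496 and 18485). Hbb-b2 also had 18318 units in the CF-1 cystic ovary. Alas2 was at 2081 units in the hybrid luteoma, which had the lowest erythroid sum, and at 1561 in the CF-1 cystic ovary. In wild-type ovaries it was at 306 to 485 units. On the hybrid cystic and hCG arrays Alas2 had 2443 and 1576 units against 798 in the tumour. Slc4a1 (851 and 618 against 1338) and Klf1 (869 and 1040 against 1258) were higher in the tumour. Macrophage markers (9 of 11) summed to 83297 units in the CF-1 wild-type ovary at 5 months against 28390 to 53456 elsewhere, and lymphocyte markers (7 of 13) to 8359 to 12815. The part of these cells in the differences below was not tested. In a whole ovary, fewer cells of a type and less RNA per cell cannot be told apart.

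The first comparison asked how LH hypersecretion bears on the family whatever the strain and age. No member passed it: limma gave 0 of 94 at adjusted p under 0.05 in either direction, against 0% of all tested probe sets. At an unadjusted p under 0.05, 0 members were higher in transgenic ovaries, against 4.68% of all tested probe sets, and 2 lower (2.13%), against 5.34%. In the 4 matched pairs of arrays 3 members were higher in each (background 9.21%) and 4 lower in each (9.68%). The median fitted log2 difference was 0.04 over the members, or -0.04 under quantile normalization, and 0.00 over all tested probe sets. The p-values rest on the spread among arrays of unlike conditions, since no condition has a second array of a chip type.

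Age gave more members with a low unadjusted p than genotype did, at shares near or under those of all tested probe sets. No member passed limma's adjusted threshold (background 0.0156% higher and 0% lower at 5 months), and at an unadjusted p under 0.05, 5 members were higher at 5 months, against 9.63% of all tested probe sets, and 10 lower (10.6%), against 9.91%. In each of the 4 pairs 7 members were higher at 5 months (7.45%), against 13.6%, and 15 lower (16%), against 13.7%. The median log2 difference between 5 and 2 months was -0.14 over members and -0.02 over all tested probe sets. It was -0.29 over the 45 ribosomal protein probe sets, of which 41 were negative, and -0.02 over the 34 for initiation factors, of which 18 were. The members at 10000 units or more had a median of -0.32, with 42 of 44 negative, and the 302 other probe sets that bright had -0.18, with 231 negative. The chip types differed, with medians of -0.15 for the ribosomal proteins of chip A and -0.41 for those of chip B. By pair, the members' median was 0.05 in CF-1 transgenic, -0.56 in hybrid transgenic, -0.04 in CF-1 wild-type and -0.07 in hybrid wild-type ovaries. In the same order, that of the ribosomal proteins was -0.02, -0.78, -0.03 and -0.22. On chip A it was positive in the CF-1 pairs, transgenic (0.19) and wild-type (0.20). The hybrid transgenic pair, whose array at 2 months had the brightest ribosomal proteins, was thus the most negative. Under quantile normalization the 39 bright ribosomal protein probe sets had 0.07, -0.24, -0.02 and -0.01 in that order.

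Strain gave 0 members past limma's adjusted threshold (background 0.0312% higher and 0% lower in hybrids). At an unadjusted p under 0.05, 2 members were higher in hybrid ovaries, against 4.32% of all tested probe sets, and 1 lower, against 3.56%. In each of the 4 pairs 7 members were higher in hybrids (7.45%), against 8.1%, and 3 lower (3.19%), against 8.13%. The members' median was -0.04. Tests of whether the genotype difference depends on age or strain gave 0 members at adjusted p under 0.05. Unadjusted, 1 member passed for age (1.06%), against 2.76%, and 3 passed for strain (3.19%), against 5.43%.

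**Figure D2:**
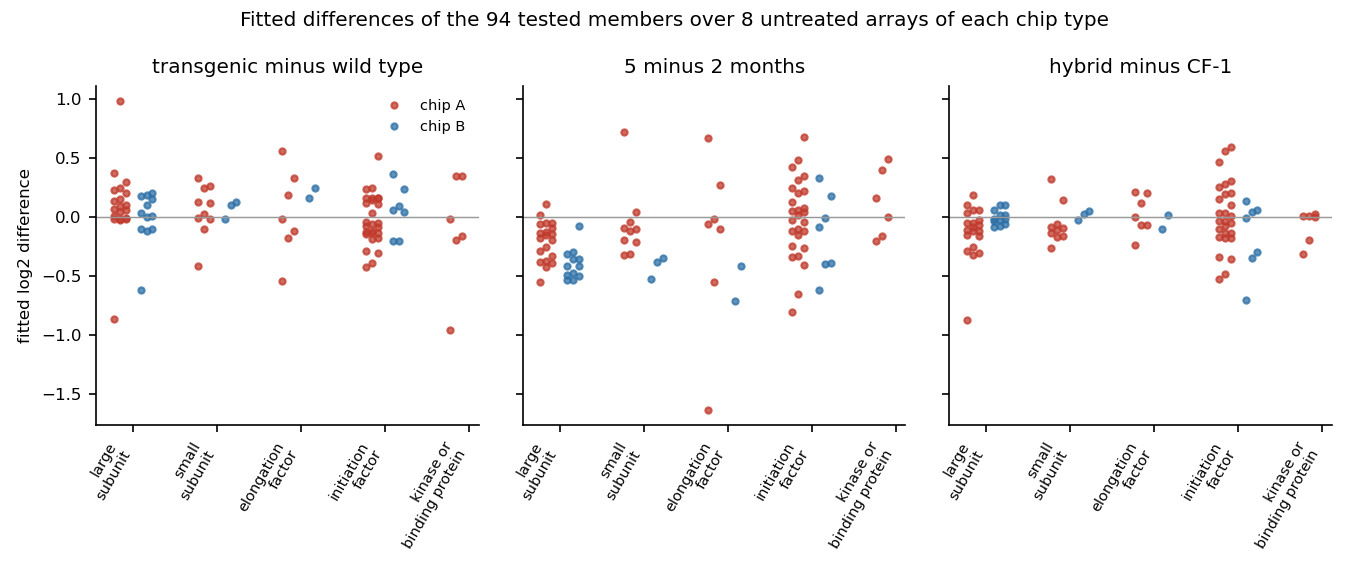
Fitted log2 difference (y) of each of the 94 tested members by role (x), for transgenic minus wild type, 5 minus 2 months and hybrid minus CF-1, with 1 point a probe set, red for chip A and blue for chip B. The points lie around 0 for genotype and strain, and for age 41 of 45 ribosomal protein points lie below 0, the members' median of -0.14 shrinking to -0.05 under quantile normalization.

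Most small subunit probe sets were highest in the hybrid cystic ovary or the hCG luteoma. Rps29, which sits in the head of the subunit, had 25925, 23157, 26278 and 33645 units in transgenic ovaries, 39020 in the hCG luteoma, and 27767, 20399, 26742 and 24964 in wild-type ovaries. The hCG luteoma was the highest array and hybrid wild type at 5 months the lowest, and the transgenic and wild-type ranges overlapped. Rps12 had 42693 units in the hybrid cystic ovary against 20930 in its wild type, and 17157 to 33807 on all other arrays. Of the 13 probe sets 0 had an unadjusted p under 0.05 for genotype, with fitted log2 medians of 0.10 for genotype and -0.20 for age. Rps27l, a copy of Rps27 that the p53 pathway induces, went the other way with age, at 962, 473, 1083 and 1150 units at 5 months (CF-1 and hybrid transgenic, then CF-1 and hybrid wild type) against 388, 666, 564 and 530 at 2 months (log2 0.72 ± 0.30 SE, unadjusted p = 0.046, adjusted p = 0.250 in limma). The age groups overlapped, since the hybrid luteoma was below 3 of the arrays at 2 months. Rps3, at the mRNA entry, was read at 589 to 1133 units by a chip A probe set and at 19356 to 38648 by one on chip B, and their strain differences had opposite signs (0.14 and -0.03).

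Among the large subunit proteins Rpl5, which carries 5S rRNA into the subunit and can bind Mdm2, had the lowest p for genotype. It had 877, 599, 1085 and 998 units in transgenic ovaries, 1238 in the hCG luteoma, and 1126, 1376, 1413 and 1439 in wild-type ovaries. All 4 untreated transgenic arrays were below all 4 wild-type arrays. The log2 difference was -0.62 ± 0.19 (SE; unadjusted p = 0.013, adjusted p = 0.402 in limma). The probe set is of the family kind and lies on chip B.

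Rpl10, which joins the subunit late in its assembly, had 1911, 1142, 930 and 1962 units in transgenic and 3517, 1147, 3296 and 3298 in wild-type ovaries, with 2566 in the hCG luteoma. Hybrid wild type at 5 months lay with the transgenic arrays and the other 3 wild-type arrays above them. The log2 difference was -0.87 ± 0.42 (SE; unadjusted p = 0.077, adjusted p = 0.566 in limma). In the cystic CF-1 ovary it was 3.54-fold lower than in its wild type, the only member past 2-fold there, where 2.79% of all tested probe sets were at least 2-fold lower.

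Rpl41, the smallest ribosomal protein, varied most of the bright members, with an SD of 1.01 in log2 over the 9 arrays. It had 20470, 16499, 13410 and 26826 units in transgenic ovaries, 16486 in the hCG luteoma, and 29582, 3211, 12991 and 6513 in wild-type ovaries. The hybrid wild-type ovaries were the lowest at either age and the CF-1 wild type at 5 months the highest. The genotype difference was 0.98 ± 0.58 (SE; unadjusted p = 0.133, adjusted p = 0.645 in limma), and its dependence on strain 2.44 ± 0.78 in log2 (unadjusted p = 0.018, adjusted p = 0.854). The same array, hybrid wild type at 5 months, was at least 1.5-fold below all others for Rpl41 and for 1 probe set of Rplp2, a stalk protein (8049 units against 12417 to 18729), which is 2.13% of members against 0.484% of all tested probe sets. The scale factor of this array was the lowest of chip A, at 0.703.

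The other large subunit probe sets varied less than that of Rpl41. Rpl3, at the peptidyl transferase centre, had 20566, 17454, 30039 and 33036 units in transgenic, 32101 in hCG-treated, and 20581, 28668, 32372 and 26193 in wild-type ovaries. The 3 arrays that stood apart were its 3 lowest, and its age difference was -0.50 ± 0.20 (SE; unadjusted p = 0.043, adjusted p = 0.244 in limma). Rpl36 on chip A (-0.56, unadjusted p = 0.026) and Rpl7 (-0.39, unadjusted p = 0.033) were the large subunit probe sets among the 10 members with the lowest p for age. For both of them the 3 arrays that stood apart were also the 3 lowest, and the second probe set of Rpl36, on chip B, gave -0.08. Rplp0, the base of the stalk, gave age differences of -0.09 (chip A), -0.53 and -0.50 (chip B), its genotype difference being 0.18 to 0.37 over the 3. The 2 probe sets of Rpl28 gave genotype differences of -0.10 and 0.03, and those of Rplp2 strain differences of -0.26 and 0.18. Over the 32 probe sets the median was 0.06 for genotype, with 22 positive, and -0.31 for age, with 30 negative.

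The elongation factors held the member that varied most. Eef1a1, which delivers aminoacyl-tRNA, was read by 4 probe sets, and they did not move alike. The C78483_rc_f_at probe set had 1015, 1309, 6077 and 3581 units in transgenic ovaries, 6659 in the hCG luteoma, and 1147, 4198, 6630 and 4130 in wild-type ovaries. The 3 low values are the 3 arrays that stood apart, and the other 6 lay between 3581 and 6659. Its age difference was -1.64 ± 0.44 (SE; unadjusted p = 0.0069, adjusted p = 0.159 in limma), the largest of any member.

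The C79877_rc_f_at probe set had 5795, 5634, 6798 and 6072 units at 5 months (CF-1 and hybrid transgenic, then CF-1 and hybrid wild type) against 8779, 9827, 9198 and 7851 at 2 months. Its age groups did not overlap, and the hCG luteoma, at 5153 units, lay below both. The difference was -0.55 ± 0.16 (SE; unadjusted p = 0.0095, adjusted p = 0.169 in limma). The m22432_f_at probe set had 11542 to 36712 units over the 9 arrays and an age difference of -0.10, and Msa.1312.0_f_at had 15326 to 50185 units and -0.71 (unadjusted p = 0.046). For genotype the 4 probe sets ran from -0.55 to 0.33 and for strain from -0.24 to 0.20. The level and direction read for Eef1a1 thus depend on the probe set.

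Eef1a2, its relative of muscle and neurons, was near background, at 348, 533, -71 and 65 units in transgenic, 729 in hCG-treated, and 140, 215, -87 and 153 in wild-type ovaries. Only the hybrid luteoma and the hCG luteoma reached the detection limit. Fitted on floored values, the age difference was 0.67 (unadjusted p = 0.038), the genotype difference 0.56 (unadjusted p = 0.071), and the dependence of genotype on age was positive (unadjusted p = 0.022, with 0 members past the adjusted threshold in limma). Eef2 on chip B had 14432, 11135, 18603 and 21769 units in transgenic and 13147, 13829, 17086 and 13353 in wild-type ovaries, with an age difference of -0.42 ± 0.20 (SE; unadjusted p = 0.070). The subunits of the exchange complex that recharges eEF1A, Eef1b2, Eef1d and Eef1g, had genotype differences of -0.12, -0.18 and 0.18.

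**Figure D3:**
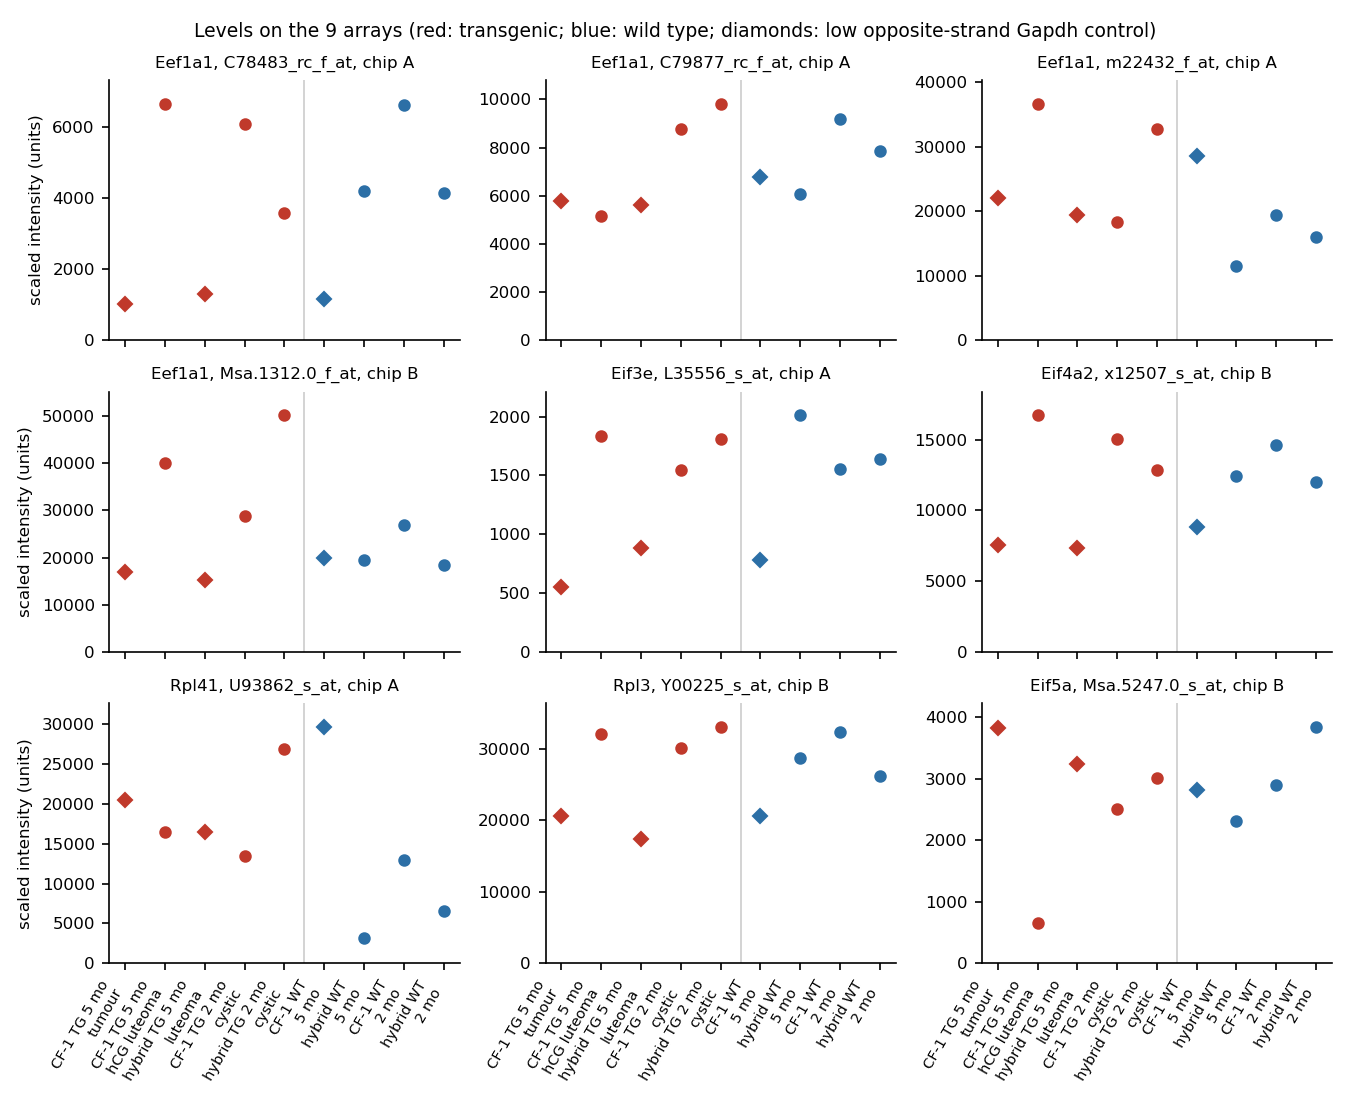
Scaled intensity (units, linear axes starting at 0) of 9 member probe sets on the 9 arrays, transgenic in red left of the grey line and wild type in blue, with diamonds for the 3 arrays with a low opposite-strand Gapdh control. The diamonds are the lowest points for Eef1a1 (C78483_rc_f_at), Eif3e, Eif4a2 and Rpl3 but not for Rpl41, and Eif5a is low on the hCG array alone, at 659 units.

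The initiation factors that read the start codon and carry the initiator tRNA held both steady and variable probe sets. The gamma subunit of eIF2, Eif2s3x, had 5893 to 7182 units over the 9 arrays with 1 probe set, the smallest SD of any tested member (0.09 in log2), and 0.14 with the other. Eif1b on chip B (0.10), Eif2b2 of the exchange factor eIF2B (0.11) and Eif4e2, a cap-binding relative of eIF4E (0.12), followed. Eif2a and Eif2s2 each had an SD of 0.36 and Eif2d of 0.56. The beta subunit, Eif2s2, differed between strains, at 4657, 5719, 5302 and 7019 units in hybrids (transgenic and wild type at 5 months, then at 2 months) against 3326, 3221, 4599 and 4249 in CF-1 ovaries. The strains did not overlap. The difference was 0.56 ± 0.16 (SE; unadjusted p = 0.010, adjusted p = 0.512 in limma).

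Eif2a, which can bring initiator tRNA without eIF2, had the lowest p for age. It had 2866, 2466, 2583 and 2860 units at 5 months (CF-1 and hybrid transgenic, then CF-1 and hybrid wild type) against 1528, 1580, 1901 and 1757 at 2 months. All 4 arrays at 5 months were above all 4 at 2 months, and hCG-treated ovaries, at 1978 units, lay between. The difference was 0.67 ± 0.15 (SE; unadjusted p = 0.0028, adjusted p = 0.137 in limma). Its sign is opposite to that of the members' age median. Hybrid wild type at 5 months, the untreated array of that age that did not stand apart, had 2860 units.

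Eif2b5, the catalytic subunit of eIF2B, had 1047, 584, 700 and 656 units in hybrids (transgenic and wild type at 5 months, then at 2 months) against 1646, 1183, 1034 and 996 in CF-1 ovaries with w29920_s_at. The strains overlapped only by the hybrid luteoma. The difference was -0.71 ± 0.19 (SE; unadjusted p = 0.0067, adjusted p = 0.464 in limma), and the second probe set gave -0.35. For age its 2 probe sets had opposite signs (0.33 and -0.39). Eif1a, a scanning factor, likewise gave age differences of 0.24 and -0.41 and genotype differences of -0.31 and 0.16 with its 2 probe sets, and the first of them had a strain difference of 0.46 (unadjusted p = 0.029). Eif1b gave genotype differences of -0.08 and 0.04 and age differences of 0.07 and -0.09.

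Within eIF3, the scaffold that holds the small subunit for initiation, 9 of 12 probe sets had a negative genotype difference and the median was -0.15. Eif3l had 3443, 3926, 4635 and 6378 units in transgenic and 3711, 5774, 7953 and 7646 in wild-type ovaries with aa218380_at. Each transgenic array was below its wild-type partner, though the ranges overlapped. The genotype difference was -0.43 ± 0.17 (SE; unadjusted p = 0.042, adjusted p = 0.489 in limma) and the age difference -0.66 ± 0.17 (SE; unadjusted p = 0.0061, adjusted p = 0.159), while the second probe set gave -0.19 and -0.25.

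Eif3e, a subunit first known as a site of viral insertion in mouse mammary tumours (Int6), had 547, 881, 1548 and 1809 units in transgenic, 1833 in hCG-treated, and 780, 2011, 1556 and 1643 in wild-type ovaries. The low arrays are the 3 that stood apart. Its age difference was -0.81 ± 0.29 (SE; unadjusted p = 0.024, adjusted p = 0.208 in limma). It became 0.12 when those arrays had a term of their own, chosen after seeing the data. With that term the age difference rests on hybrid wild type at 5 months alone, the only untreated array of that age outside the 3. Without hybrid wild type at 5 months both Eif3e and the C78483_rc_f_at probe set of Eef1a1 passed limma's adjusted threshold for age, at -1.12 (adjusted p = 0.047) and -2.15 (adjusted p = 0.034). The remaining untreated arrays at 5 months are then the 3 that stood apart, so age and that grouping cannot be told apart there. Eif3m (0.52 and -0.06) and Eif3h (-0.09 and 0.03) had genotype differences of opposite sign between their probe sets.

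Of the eIF4 group, which brings the cap and unwinds the leader, Eif4b stood out in the tumour. It had 14390 units there against 6347 to 9519 on all other arrays with aa387455_at, the only member at least 1.5-fold above all others in the tumour (1.06%), against 3.18% of all tested probe sets. The second probe set was also highest in the tumour, at 6673 against 2785 to 4878 units. For age both probe sets were positive (0.49, unadjusted p = 0.026, and 0.42, unadjusted p = 0.048). The helicase Eif4a2 had 7560, 7362, 15052 and 12857 units in transgenic, 16715 in hCG-treated, and 8813, 12433, 14590 and 11980 in wild-type ovaries. It was lowest on the 3 arrays that stood apart, with an age difference of -0.62 ± 0.21 (SE; unadjusted p = 0.020, adjusted p = 0.197 in limma). Its relative Eif4a1 gave 0.14 and 0.06 for genotype on chips A and B.

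Eif5a, which helps the ribosome past difficult peptide bonds, had 659 units in the hCG luteoma against 2319 to 3837 on the other 8 arrays. This was the only member at least 1.5-fold below all others in the hCG luteoma (1.06%), against 1.44% of all tested probe sets. Beyond the members named here, none lay that far above all others in the hCG luteoma (background 1.08%), the hybrid luteoma (0.936%), the hybrid cystic (0.265%) or CF-1 cystic ovary (0.218%), or in hybrid (0.406%) or CF-1 wild type (0.125%) at 2 months. None lay that far below in the tumour (3.9%), the hybrid luteoma (0.499%), the hybrid cystic (0.406%) or CF-1 cystic ovary (0.234%), in CF-1 wild type at 5 months (0.375%), or in hybrid (0.624%) or CF-1 wild type (0.234%) at 2 months. The Eif5a value is 1 probe set on 1 array, and the second probe set of the gene was not tested.

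Among the proteins that hold back initiation, Eif4ebp1, an inhibitor of the cap-binding factor, had 3965 to 6763 units over the 9 arrays. Eif4ebp2, a second such inhibitor, was read by 3 probe sets on chip A that disagreed. With aa673337_i_at it had 217, 1446, 788 and 353 units in transgenic, 797 in hCG-treated, and 2359, 877, 810 and 743 in wild-type ovaries. The CF-1 wild type at 5 months was high and the tumour below the detection limit, and the genotype difference was -0.96 ± 0.64 (SE; unadjusted p = 0.177, adjusted p = 0.687 in limma). With aa673337_s_at the tumour was the highest array, at 1084 units against 434 to 823, and the genotype difference was 0.35. With U75530_s_at hybrid wild type at 5 months was high, at 763 against 163 to 436 units. These were the only members at least 1.5-fold above all other arrays in CF-1 wild type (background 0.624%) and in hybrid wild type (0.25%) at 5 months. Eef2k, the kinase of eEF2, had 268 to 558 units and a genotype difference of 0.35 (unadjusted p = 0.184). Eif2ak2, the double-stranded RNA-activated kinase of eIF2, had 125 to 397 units and a difference of -0.17.

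Comparisons of 1 array a side asked how each pathology differs from its wild type. They have no replicate check and no test, and a member was counted when it differed at least 2-fold with the brighter side detected. In the CF-1 tumour over CF-1 wild type at 5 months 0 members were higher, against 5.04% of all tested probe sets, and 1 lower (1.06%), against 7.1%. That one is Eif4ebp2 (aa673337_i_at), at least 6.42-fold lower with the tumour taken at the detection limit. The members' median was -0.07, with -0.13 for ribosomal proteins (0.06 for the bright ones under quantile normalization), 0.21 for initiation factors and 0.48 for the 5 probe sets of eIF2B. The members' median turned positive under quantile normalization (0.08) and cyclic loess (0.04).

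In the hCG luteoma over the same CF-1 wild type, 4 members were higher (4.26%), against 7.38%, and 2 lower (2.13%), against 6.98%. Eef1a1 was 5.81-fold higher with C78483_rc_f_at (6659 against 1147 units) and 2.02-fold with Msa.1312.0_f_at, Eif3e 2.35-fold (1833 against 780), and Eef1a2 at least 1.98-fold. Eif5a was 4.27-fold lower (659 against 2814) and Eif4ebp2 2.96-fold lower with aa673337_i_at. The median over members was 0.14, or 0.02 under quantile normalization and 0.08 under cyclic loess. That over ribosomal proteins was 0.20, and that over the 39 bright ones 0.24, or 0.02 under quantile normalization and 0.14 under cyclic loess. The tumour and hCG comparisons share the CF-1 wild-type array, and it is 1 of the 3 that stood apart while the hCG array is not.

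Set against the tumour directly, the hCG luteoma had 6 members higher (6.38%), against 13.2%, and 5 lower (5.32%), against 11.6%. Eef1a1 with C78483_rc_f_at was 6.56-fold higher (6659 against 1015 units), Eif3e 3.35-fold (1833 against 547) and Eif4a2 2.21-fold (16715 against 7560), and Eif4ebp2 with aa673337_i_at at least 2.17-fold. The Msa.1312.0_f_at probe set of Eef1a1 was 2.37-fold higher. Eif5a was 5.80-fold lower (659 against 3820 units), Eif4ebp2 with aa673337_s_at 2.50-fold, Eif2b5 2.24-fold (735 against 1646) and Eif4b 2.00-fold (7187 against 14390). Eif2ak2 was at 125 units, under the detection limit, against 390 in the tumour, just above it. Eef1a2 was at least 1.98-fold higher (729 against 348). The members' median of 0.10 became -0.10 under quantile normalization and -0.03 under cyclic loess.

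In the hybrid luteoma over hybrid wild type at 5 months 2 members were higher (2.13%), against 6.57%, and 6 lower (6.38%), against 8.27%. Rpl41 was 5.14-fold higher (16499 against 3211 units) and Eef1a2 at least 1.45-fold. Eef1a1 with C78483_rc_f_at was 3.21-fold lower (1309 against 4198 units), Rps27l 2.43-fold (473 against 1150), Rpl5 2.30-fold (599 against 1376) and Eif3e 2.28-fold (881 against 2011). Eif2d, which can replace eIF2 in loading tRNA and takes part in recycling, was at least 2.31-fold lower, and Eif4ebp2 with U75530_s_at at least 2.08-fold. The medians were -0.22 over members and -0.51 over eIF3, against -0.07 over all tested probe sets. The chip types differed, with ribosomal protein medians of 0.05 on chip A (15 of 30 positive) and -0.37 on chip B (0 of 15 positive). This pair crosses the arrays that stood apart, since the hybrid luteoma is 1 of them and hybrid wild type is not.

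At 2 months each cystic ovary was set against the wild type of its strain, and the difference between the strains was not tested here. In the CF-1 cystic ovary 0 members were at least 2-fold higher than in wild type, against 2.95% of all tested probe sets, and the members' median was -0.06. In the hybrid cystic ovary 8 were (8.51%), against 4.35%, and 1 was lower, against 4.43%, with medians of 0.31 over members and 0.56 over ribosomal proteins. The 8 were Rpl41, Rplp0 with all 3 of its probe sets, Rps12, Rpl37a and 2 probe sets of Eef1a1, each of them at 10000 units or more on average, and those beyond the 5 largest are named after their values were seen. The lower one was Eif4ebp2 with aa673337_i_at, at least 2.02-fold. Of the bright members 43 of 44 were higher in the hybrid cystic ovary, and of the 302 other bright probe sets 237 were. The 50 dimmer members had a median of 0.01 there. The median of the 39 bright ribosomal protein probe sets, 0.59 there, became 0.02 under quantile normalization and 0.34 under cyclic loess. The cause of this shift was not tested.

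**Figure D4:**
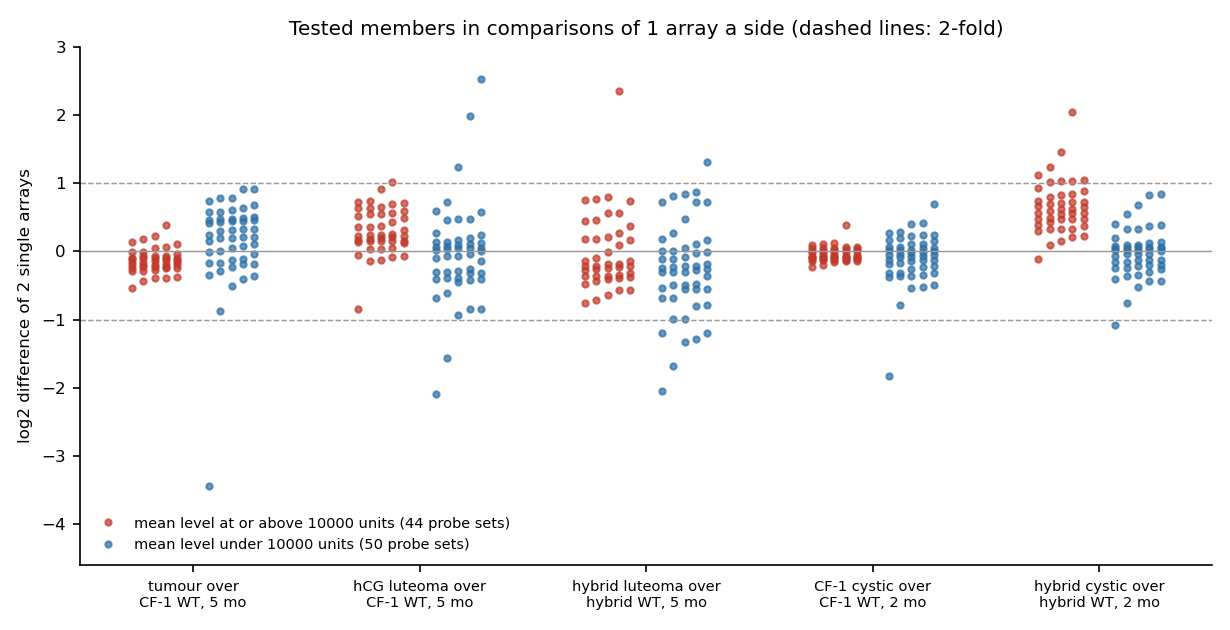
Log2 difference of 2 single arrays (y) for each tested member in the 5 transgenic over wild-type pairs (x), red for the 44 probe sets that average 10000 units or more and blue for the 50 dimmer ones, with dashed lines at 2-fold. The red points shift together, upward in the hybrid cystic ovary (median 0.61 of the scaled values) and slightly downward in the tumour (-0.14), while the blue points there have medians of 0.01 and 0.23. For the bright ribosomal proteins among them the hybrid cystic shift of 0.59 becomes 0.02 and the tumour shift of -0.13 becomes 0.06 under quantile normalization.

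How far members varied over the 9 arrays was much as for other probe sets of their brightness. The median SD in log2 was 0.32 for the 44 bright members and 0.30 for 302 other probe sets that bright, 0.25 for 23 members and 0.30 for others between 3000 and 10000 units, 0.34 for both between 1000 and 3000 units, and 0.48 and 0.47 under 1000 units. Of the 18 genes with several tested probe sets, these differed in sign in 7 for genotype, 4 for age and 7 for strain.

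Other genes of the pathway were read from lists, chosen with earlier results known, and limma called 0 of them for genotype after adjustment. Of 16 measured genes that signal to translation 4 were higher in transgenic ovaries at an unadjusted p under 0.05 and 0 lower, where 4.68% of all tested probe sets were higher and 5.34% lower. They were Trib3, a stress-induced inhibitor of Akt (410, 395, 439 and 472 units in transgenic against 248, 209, 283 and 294 in wild-type ovaries, without overlap, log2 0.74, adjusted p = 0.183), Ddit4, an inhibitor of mTOR complex 1 (0.54, adjusted p = 0.413), Atf5 (0.83) and Max (0.44), the last named after its value was seen. The wild-type levels of Trib3 lie under the detection limit. The hCG luteoma was not part of this fit, and Trib3 was at 105 units there, under the detection limit. Ddit4 (log2 -0.40), Atf5 (-0.46) and Max (-0.24) were also below CF-1 wild type at 5 months there, with 1 array a side. Of 24 ribosome assembly genes 1 was higher, Rrn3, which starts rRNA transcription (1130 ± 188 in transgenic and 757 ± 174 units in wild-type ovaries, SD, n = 4 each, adjusted p = 0.465). Of 14 tRNA synthetase genes 1 was lower (Farsb), of 29 mitochondrial ribosome genes 1 lower (Mrps12), and of 16 termination, mRNA end and nascent chain genes none in either direction. Fau and Rpsa, small subunit proteins outside the symbol rule, gave 0.15 and 0.03.

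For age the termination, mRNA end and nascent chain list had 6 of 16 genes lower at 5 months at an unadjusted p under 0.05, where 9.91% of all tested probe sets were. Ybx1, an mRNA-packaging protein picked here after its values were seen, had 2536, 2945, 2721 and 6522 units at 5 months (CF-1 and hybrid transgenic, then CF-1 and hybrid wild type) against 9311, 7496, 10076 and 7794 at 2 months, and 9538 in the hCG luteoma. The 3 low values again are the arrays that stood apart. Among the list genes that differed most between the tumour and CF-1 wild type at 5 months, each from 1 array a side, Mycn was at 1517 units against 305, Mars1 at 1036 against 299, Akt2 at 322 against 815 and Mrpl50 at 270 against 620, the lower side under the detection limit in each. Ppp1r15a, which helps to dephosphorylate eIF2, was at 1800 units against 712 (log2 1.34). Proliferation markers (18 of 22 genes measured) summed to 24328 units in the tumour against 15958 in CF-1 wild type at 5 months, with a median log2 difference of 0.52. That array was low for a wild type, since the other wild-type arrays had 25812 to 25939 units. The CF-1 and hybrid cystic ovaries had 25488 and 24441, all above the tumour. The hybrid luteoma had 17719 and the hCG luteoma 14349.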

How the data were processed

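RNA of whole mouse ovaries was measured on 2 chip types, 1 array a condition. The deposited values are linear intensity values, 1 per probe set and array, 13.6% to 30.1% of them below 0. The sources used here do not say how the authors computed the intensity values. Within a chip type, arrays were brought to 1 trimmed mean (2nd to 98th percentile), values were raised to a floor (183.8 units on chip A, 290.7 on chip B) and taken to log2, so that differences of dim probe sets are understated. Printed levels are before the floor. On each chip 76 control or shared probe sets were left out, and 4122 and 2286 were tested.

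An additive model of genotype, age and strain was fitted per chip, over its 8 arrays without hCG, using R 4.3.3 and limma 3.58.1 (4 residual degrees of freedom), adjusted over both chips by Benjamini-Hochberg at 0.05 and tested on simulated data. The number of arrays limits the precision. In the simulated data 41.5% of the probe sets with a log2 genotype difference of 1 were called. Folds with a side under the detection limit (2 floors) use the limit and read "at least". Start windows were read from RefSeq promoters.

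Members and lists were chosen with earlier results of these data known. Named were the 10 members with the lowest p per factor, the 5 largest 2-fold differences a side, the 5 extremes of level and SD, members 1.5-fold beyond all other arrays, members whose probe sets differ in sign, and, of the other lists, the 3 with the lowest genotype p and the 3 largest a side in the tumour. Alternatives covered scaling, floor, filter, bright members, 1 probe set per gene, the variance model, a matched pair block and each array left out.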

Additional observations from a re-analysis of the deposited data

Results flagged for a closer look

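In 6 of 97 groups of 4 arrays that reached the detection limit, 1 array lay far from the other 3, where chance gives about 1 in 20. All 6 are wild-type groups. On chip A, Rpl10 was at 1147 units in hybrid wild type at 5 months against 3296 to 3517 in the other wild-type ovaries. The aa673337_i_at probe set of Eif4ebp2 was at 2359 units in CF-1 wild type at 5 months against 743 to 877, Eif4a1 at 7776 units in the same ovary against 9171 to 9331, and 1 probe set of Eif1a at 633 units there against 1064 to 1168. A probe set of Eif2s3x was at 5893 units in CF-1 wild type at 2 months against 6379 to 6483. On chip B, 1 probe set of Rpl28 was at 20408 units in CF-1 wild type at 2 months against 17451 to 17711.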

How the results depend on the processing

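No member passed the adjusted threshold for genotype or strain under any alternative, and for age 0 to 2 did when each array was left out in turn. The 2 passed without hybrid wild type at 5 months, where the remaining untreated arrays of that age are the 3 that stood apart. The count of members at an unadjusted p under 0.05 for age was less firm, with 15 in the values reported and 8 under quantile normalization. It was 9 without members at 16000 units or more and 23 with trended and robust variances. With a term for the 3 arrays that stood apart, the age difference rests on 1 array at 5 months, so no count is given. Leaving out each array gave 5 to 21, with 8 without the CF-1 cystic ovary, 8 without the tumour, 5 without the hybrid cystic ovary, 9 without the hybrid luteoma and 5 without CF-1 wild type at 2 months. The members' medians with each array left out ran from -0.08 to 0.14 for genotype, -0.27 to -0.05 for age and -0.15 to 0.02 for strain. Unadjusted counts moved to 1 for genotype with 1 probe set per gene, and to 4 without the tumour and 6 without CF-1 wild type at 5 months. For strain they moved to 5 without a filter, 5 without the CF-1 cystic ovary, 5 without the tumour and 7 without the hybrid cystic ovary. Quantile normalization gave 2 members past 2-fold in the tumour where 1 was reported, and the members' genotype median -0.04. Without members at 16000 units or more the median was 0.21 in the tumour and -0.17 for the hCG luteoma against the tumour. The median SD over the 9 arrays was 0.24 under quantile normalization and 0.27 under cyclic loess, against 0.34. No named member passed the adjusted threshold in the values reported, so keeping its side of that threshold was a weak check. Of 556 combinations of a named member and an alternative 553 kept their direction and side of the threshold, 2 passed it (Eef1a1 at -2.15 and Eif3e at -1.12 for age) and 1 reversed (Eif3e for age, 0.12, with the array term). The reversed value rests on hybrid wild type at 5 months alone. The cause of these changes was not tested. Cyclic loess, the array term, the matched pair block and each chip alone were chosen after seeing the data. The labels give no replicate numbers that pair samples, so pairs were matched on the other factors. With the 4 matched pairs of a factor as a block (3 residual degrees of freedom) limma called 0 members for genotype, age or strain after adjustment, and 2, 11 and 3 at an unadjusted p under 0.05, where 9.72%, 19% and 6.93% of all tested probe sets passed. The block changed no call and no direction of a named member.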
